A study of Mus musculus with 8 samples.

Results

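The genes described here build and drive motile cilia, the beating hair-like projections of ependymal cells, which line the brain ventricles. They are the protein-coding genes whose symbols begin with Dnah, Dnaic, Dnaaf, Cfap, Rsph, Tekt or Drc, together with Foxj1, Ccdc153 and Tmem212, that had a mean of at least 10 mRNA counts over the 8 mRNA libraries. This left 59 of the 71 protein-coding genes with such names, in a table of 54532 genes. They comprised 24 Cfap, 14 Dnah, 6 Rsph, 4 Tekt, 3 Dnaaf, 3 Drc and 2 Dnaic genes besides the 3 genes taken by their own name. The members were thus chosen by name and by their mean mRNA count over all libraries, a rule set with earlier results of these data known. Just inside the minimum were Tekt2, with a mean of 10.1 counts, and Dnaaf3, with 12.6, and just outside were Cfap58, with 9.62, and Dnah17, with 9.50.

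A motile cilium has a ring of paired microtubules around a central pair. Dynein motors attached to the outer pairs slide them past each other, radial spokes and nexin links turn the sliding into bending, and the motors are assembled in the cytoplasm by dedicated factors before they are carried into the cilium. The transcription factor Foxj1 and the RFX factors switch on many of these genes in cells that make many motile cilia, and in the brain such cells are chiefly those of the ependyma and, with fewer cilia, the choroid plexus. Several of the gene families also have members that act in sperm or in neurons, so a name alone does not place a gene in the ependyma.

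Brain tissue was taken from male mice aged 3 months, and by their labels 4 libraries are wild type (WT) and 4 are Nsun5 knockout (KO). Nsun5 is an enzyme that methylates a cytosine of ribosomal RNA, and the series asks how its loss acts on the brain, and its title names myelin and sleep. Ribosome footprints, which are pieces of RNA protected by ribosomes during nuclease digestion, and mRNA were counted per gene, and mRNA columns carry the names of the footprint libraries. The treatment notes name 5 littermate mice per genotype, anaesthetised with pentobarbital before the brain was taken. The labels do not describe the Nsun5 allele, nor tie a library to an animal, so the p-values reflect how much these libraries vary, which may be partly technical.

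The mRNA libraries held 15.6 to 17.8 M counts and the footprint libraries 0.586 to 3.49 M, of which 0.233 to 1.47 M were on protein-coding genes. Nsun5 itself had 82 to 109 mRNA counts in the libraries labelled WT and 83 to 124 in those labelled KO, so its counts did not separate the groups, and WT and KO below mean libraries as labelled. Cortical, oligodendrocyte and astrocyte genes (Slc17a7, Mbp, Gfap) were abundant, whereas the cerebellar genes Pcp2 and Gabra6 had 31 and 34 counts over all 8 mRNA libraries. Cbln1, checked beside them, had 1972 counts and ranged from 6.34 to 30.1 CPM between libraries. How much cerebellum each library held was not tested. WT libraries 1 and 2 stood apart from the other 6, with scores of 33.0 and 36.8 on the first principal component of the mRNA (26.6% of the variance) against −23.7 to −4.06. Results are therefore also given without them.

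Levels are counts per 1000000 (CPM) of the TMM-scaled library, which allow comparison of a gene between libraries. Reads per kilobase per 1000000 (RPKM) are used to compare genes of different length. The members had mean mRNA levels from 0.0564 to 37.7 RPKM with a median of 0.605, and 30 of them had a mean below 50 counts. Cfap36, which is also made in cells without motile cilia, was the highest, at 37.7 RPKM, Foxj1 stood at 3.61 and the 14 Dnah genes, the dynein heavy chains, at 0.0564 to 0.801. In whole tissue, fewer cells of a type and less RNA per cell cannot be told apart.

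Stretches around the annotated starts of these genes are shown first, because RFX factors and Foxj1 bind short DNA motifs. RefSeq promoter windows on GRCm38.p6, from 250 bases before to 50 bases after each annotated start, were found for 50 of the 59 members by symbol. The motifs searched, on both strands, were the RFX core GTTGCC, the X-box (GTNNCC, 0 to 3 of any base, then GGNAAC), which can contain the RFX core, and the forkhead site GTAAACA. The following stretches, written 5′ to 3′ on the gene's strand with the motif in capitals, show the X-box and the RFX core at genes whose values are given below. Both Cfap298 stretches lie before its RefSeq start but inside the gene's span in the count table, which begins further upstream.

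Cfap206, X-box, chr4:34730207-34730266, minus strand: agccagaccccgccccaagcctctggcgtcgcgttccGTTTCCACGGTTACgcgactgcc
Tekt4, X-box, chr17:25471407-25471466, plus strand: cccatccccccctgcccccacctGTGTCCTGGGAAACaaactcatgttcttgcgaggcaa
Cfap298, X-box, chr16:90935016-90935045, minus strand: gggttttgGTTGCCCGGGCAACagctactt
Cfap298, X-box, chr16:90934896-90934925, minus strand: tttgactGTTGCCCCTGGCAACagccactt
Ccdc153, RFX core, chr9:44240498-44240557, plus strand: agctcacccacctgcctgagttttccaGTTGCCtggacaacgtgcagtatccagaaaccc
Cfap44, RFX core, chr16:44394643-44394702, plus strand: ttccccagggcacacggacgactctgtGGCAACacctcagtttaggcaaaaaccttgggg
Cfap161, RFX core, chr7:83794888-83794917, minus strand: tcttgaccaactGGCAACtGGCAACtgcct
Tekt2, RFX core, chr4:126325752-126325811, minus strand: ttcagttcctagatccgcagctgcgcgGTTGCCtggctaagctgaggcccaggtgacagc

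The RFX core occurred in a promoter window of 22 of 50 member genes (44.0%) and of 14.1% of the 27025 genes in the table. The X-box occurred in 4 of 50 (8.0%) against 2.68%, and the forkhead site in 2 of 50 (4.0%) against 4.05%. These are descriptions of letters in a window, not of binding. The median mRNA log2 fold change (KO minus WT) was −0.46 for the 22 members with the RFX core and −0.48 for the 28 without it. The stretches shown for the RFX core alone (Ccdc153, Cfap44, Cfap161 and Tekt2) are from genes with low fold changes, −1.70 to −1.06. They do not represent all members with the core, which also occurred at Cfap74 and Dnah7c, at 0.25 and 0.30.

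**Figure D1:**
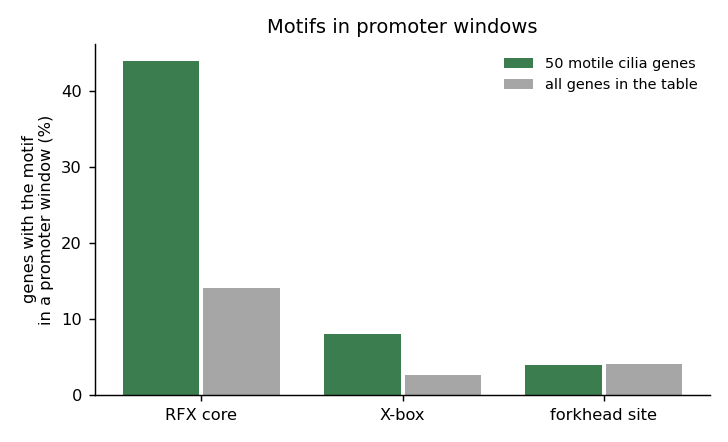
Share of genes (%) with each motif in a RefSeq promoter window, for the 50 members that have one (green) and for all genes in the table (grey). The RFX core stands at 44.0% against 14.1%, and the forkhead site at 4.0% against 4.05%.

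Of the 59 members, 50 had a lower mRNA level in the libraries labelled KO, against 51.4% of all 16047 genes tested, and their median log2 fold change was −0.50 against −0.01 over all genes. No single member passed the test: edgeR's quasi-likelihood test called 0 of 59 at an adjusted p under 0.05 (0.00% of all genes; lowest adjusted p 0.230). At an unadjusted p under 0.05, 22 members were lower, where 5.30% of all genes were, and 1 was higher (Cfap74), where 5.50% of all genes were. DESeq2 called 3 members lower, Dnah6, Cfap44 and Ccdc153, among 43 genes called lower (0.268%), and gave no adjusted p for 17 members. Without WT libraries 1 and 2, 43 members were lower (48.8% of all genes), the median was −0.29 and 6 were lower at an unadjusted p under 0.05 (3.93% of all genes). The minimum of 10 counts could itself favour genes that are high in 1 group: Dnah11, Dnaaf3, Tekt2 and Dnah12 had a KO mean below 10, and of the other 55 members 46 were lower, with a median of −0.46. Over all 71 names with no minimum, 61 were lower, with a median of −0.53, and edgeR called 3 (0.0828% of all genes with a count).

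**Figure D2:**
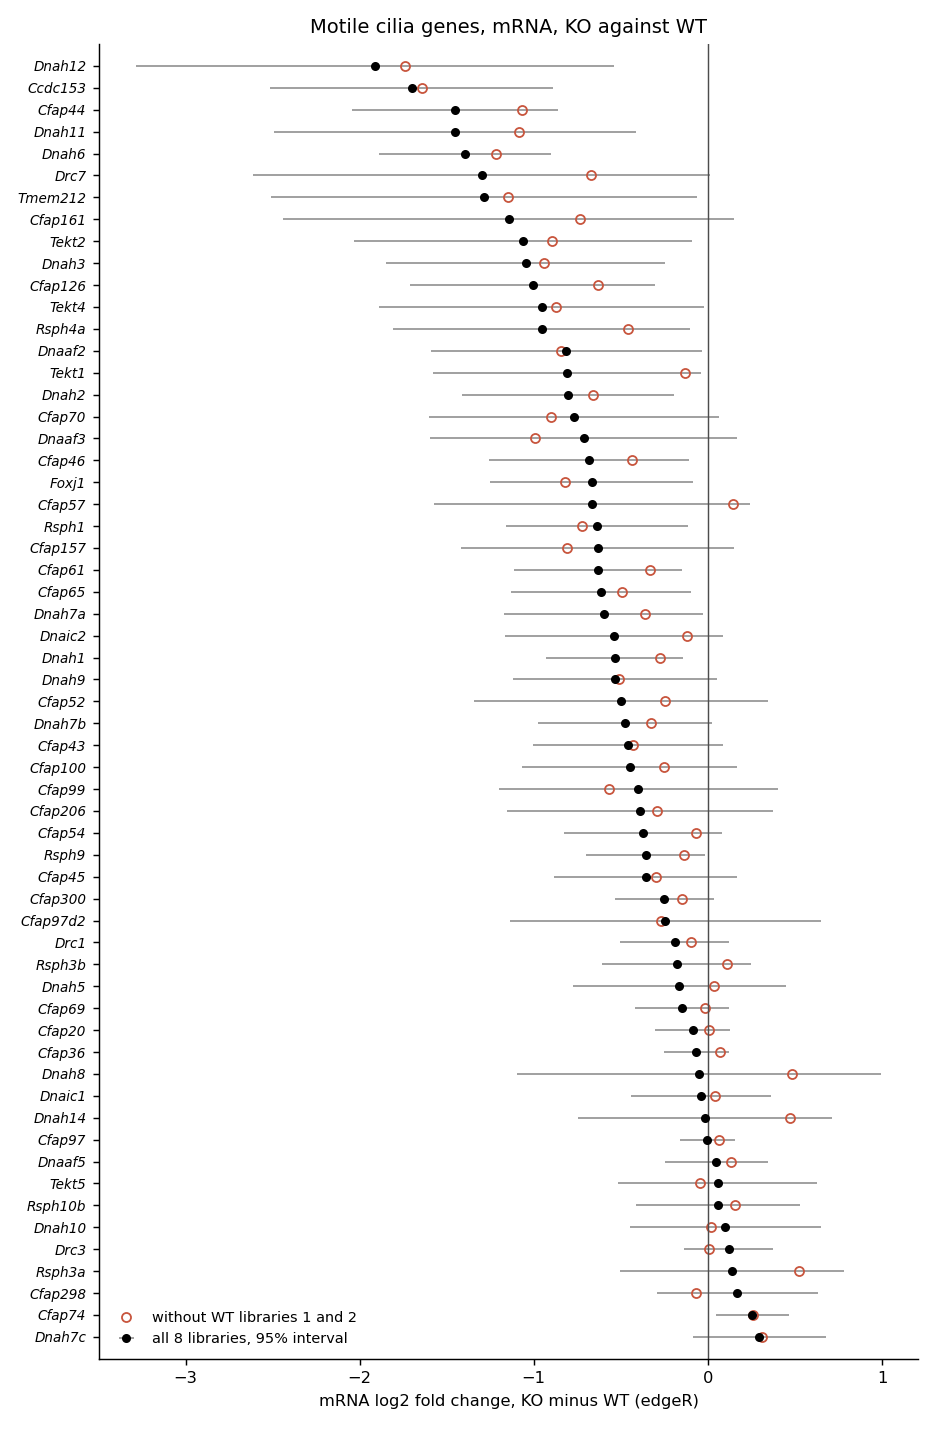
mRNA log2 fold change (KO minus WT) of each of the 59 members from edgeR, with black points and lines for the estimate and 95% interval over 8 libraries and open circles for the estimate without WT libraries 1 and 2. Most points lie left of 0, the long intervals belong to low genes such as Dnah12, and the highest is Dnah7c at 0.30.

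The mean log2 CPM over the 59 members was 2.00 ± 0.196 (SD, n = 4) in WT and 1.48 ± 0.206 (SD, n = 4) in KO. The summed CPM was 447, 529, 412 and 421 in WT libraries 1 to 4, against 399, 376, 395 and 398 in the KO libraries. Every KO sum lay below every WT sum. Cfap36 alone was at 107 CPM ± 12.9 (SD, n = 4) in WT and 102 ± 3.98 (SD, n = 4) in KO, so abundant members weigh heavily in these sums. WT library 2 was the highest for 31 members, where it was highest for 16% of all genes, and KO library 2 the lowest for 23, where it was lowest for 11.6%.

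The median difference was larger among low genes. In the 36 members with a mean below 1 RPKM, 33 were lower and the median log2 fold change was −0.57 (29 and −0.40 without WT libraries 1 and 2). Their summed CPM ran from 91.0 to 127 in WT and from 60.4 to 78.2 in KO, without overlap. The 23 members at or above 1 RPKM had a median of −0.18, with 17 lower (14 and −0.07 without those libraries). The difference between these sets was not tested. The median biological coefficient of variation between replicates was 0.241 over the members against 0.129 over all genes tested. This comparison was not matched for level. The median was 0.258 in the 36 low members, whereas the abundant Cfap36, Cfap20 and Cfap97 were at 0.095, 0.104 and 0.081.

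Foxj1 (ENSMUSG00000034227, mm10 chromosome 11, 116330704 to 116335399, minus strand) encodes the forkhead factor that commits cells to motile cilia. Its mRNA level was 7.90, 12.9, 9.67 and 16.4 CPM in WT libraries 1 to 4, against 9.42, 5.25, 5.40 and 9.40 in the KO libraries. The KO libraries 1 and 4 overlapped the lower WT libraries. The difference on the log2 scale was −0.67 ± 0.26 (SE, n = 4 per group, adjusted p by edgeR = 0.417), and −0.82 without WT libraries 1 and 2.

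Ccdc153 (ENSMUSG00000070306, mm10 chromosome 9, 44240676 to 44247306, plus strand) encodes a coiled-coil protein whose transcript is used as an ependymal marker. It had 2.96, 6.91, 4.17 and 4.87 CPM in WT and 2.26, 0.590, 1.30 and 1.64 in KO. All 4 KO libraries lay below all 4 WT libraries. The difference on the log2 scale was −1.70 ± 0.37 (SE, n = 4 per group, adjusted p by edgeR = 0.326; DESeq2 adjusted p = 0.00360), and −1.64 without WT libraries 1 and 2. Tmem212, another ependymal marker, which encodes a membrane protein, had 1.39, 3.20, 2.17 and 1.64 CPM in WT and 1.63, 0.177, 0.310 and 1.30 in KO. Its KO libraries 2 and 3 were far lower than the others, while KO library 1 lay within the WT range (log2 fold change −1.29 ± 0.55, SE, n = 4 per group, edgeR adjusted p = 0.443).

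Among the motors, 12 of 14 Dnah genes were lower, 7 of them at an unadjusted p under 0.05, and the median log2 fold change was −0.54. Without WT libraries 1 and 2, 9 of the 14 were lower, 2 at that p, and the median was −0.34. Of the 7 members whose KO libraries all lay below all WT libraries (2.70% of all genes), 5 were heavy chains: Dnah1, Dnah3, Dnah6, Dnah11 and Dnah12. The other two were Ccdc153 and Cfap44. Dnah6 (ENSMUSG00000052861, mm10 chromosome 6, 73017606 to 73221651, minus strand), an inner-arm heavy chain, had 4.59, 5.50, 3.87 and 4.14 CPM in WT and 2.26, 1.24, 1.55 and 1.81 in KO. Its KO libraries all lay well below the lowest WT library. The difference on the log2 scale was −1.39 ± 0.23 (SE, n = 4 per group), with an edgeR adjusted p of 0.230, a DESeq2 adjusted p of 0.000194, and −1.22 without WT libraries 1 and 2.

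Dnah12, the member with the lowest fold change, had 17, 37, 31 and 14 mRNA counts in WT, against 11, 0, 8 and 7 in KO, a log2 difference of −1.91 ± 0.62 (SE, n = 4 per group, adjusted p by edgeR = 0.377). Its counts were low in every library, and the WT mean was 1.51 CPM ± 0.743 (SD, n = 4). Dnah11, an outer-arm heavy chain, was also low, at 1.33 CPM ± 0.581 (SD, n = 4) in WT and 0.481 ± 0.254 (SD, n = 4) in KO. Dnah1, the heavy chain with the highest level, had 12, 17.1, 10.5 and 10.3 CPM in WT and 8.60, 8.26, 7.33 and 10.1 in KO. The groups did not overlap, but KO library 4 was near WT library 4, and the log2 fold change of −0.54 ± 0.18 (SE, n = 4 per group, adjusted p by edgeR = 0.381) became −0.27 without WT libraries 1 and 2. Dnah7c went the other way, at 0.30 ± 0.17 (SE, n = 4 per group, adjusted p by edgeR = 0.576). Dnah7a, Dnah7b and Dnah7c are near-identical copies, between which reads could be split in counting, so their separate values are uncertain.

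Outside the heavy chains, the intermediate chains Dnaic1 and Dnaic2 had log2 fold changes of −0.04 and −0.54, the latter −0.12 without WT libraries 1 and 2. The assembly factors Dnaaf2, Dnaaf3 and Dnaaf5 had −0.81, −0.71 and 0.05. Of these 5 genes, edgeR's unadjusted p was under 0.05 for Dnaaf2 alone.

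Of the 24 Cfap genes, which encode cilia- and flagella-associated proteins of many kinds, 22 were lower, 5 of them at an unadjusted p under 0.05, and 1 was higher at that p. The family's median log2 fold change was −0.43. Without WT libraries 1 and 2, 19 were lower, 1 at that p, and the median was −0.28. Cfap44 (ENSMUSG00000071550, mm10 chromosome 16, 44394796 to 44482428, plus strand), which encodes a protein that tethers inner dynein arms to the microtubules, had 3.95, 5.25, 2.78 and 2.89 CPM in WT and 1.32, 1.0, 1.55 and 1.53 in KO. The groups did not overlap, and the log2 difference was −1.45 ± 0.27 (SE, n = 4 per group, adjusted p by edgeR = 0.230; DESeq2 adjusted p = 0.00276), and −1.07 without WT libraries 1 and 2. Cfap36, Cfap20 and Cfap97 had the highest levels of the family after length, and their log2 fold changes were −0.07 ± 0.09, −0.09 ± 0.10 and 0.00 ± 0.07 (SE, n = 4 per group). Without WT libraries 1 and 2 these were 0.07, 0.00 and 0.06. Cfap206 and Cfap298, whose X-boxes are shown above, had −0.39 and 0.17, and Cfap161 −1.14, which became −0.29, −0.07 and −0.73 without WT libraries 1 and 2.

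Cfap74 (ENSMUSG00000078490, mm10 chromosome 4, 155409190 to 155466823, plus strand), a protein of the central pair, was the member whose KO libraries all lay above the WT libraries (3.00% of all genes). It had 10.3, 10.2, 10.5 and 9.86 CPM in WT and 12.4, 11.7, 12 and 12.5 in KO. The spread within each group was small, and the log2 difference was 0.25 ± 0.10 (SE, n = 4 per group, adjusted p by edgeR = 0.400), and 0.26 without WT libraries 1 and 2.

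The radial spoke genes varied in direction. Rsph9 had 12.4, 14.1, 8.70 and 11.3 CPM in WT and 9.86, 8.20, 9.93 and 8.33 in KO, a log2 difference of −0.36 ± 0.16 (SE, n = 4 per group, adjusted p by edgeR = 0.445), and −0.14 without WT libraries 1 and 2. Rsph1 was at 4.47 CPM ± 0.656 (SD, n = 4) in WT and 2.88 ± 0.884 (SD, n = 4) in KO. Rsph3a was at 9.97 ± 3.82 (SD, n = 4) in WT and 11 ± 4.21 (SD, n = 4) in KO, where KO library 2 was at 16.9 CPM. Its log2 difference was 0.14, and 0.53 without WT libraries 1 and 2. Tektins, which run along the outer microtubules, were lower for Tekt1, Tekt2 and Tekt4 at an unadjusted p under 0.05, with log2 fold changes of −0.81, −1.06 and −0.95, the edgeR adjusted p values being 0.443, 0.431 and 0.451, and without WT libraries 1 and 2 Tekt1 was at −0.13. Tekt5, the most abundant by length at 6.42 RPKM and best known from sperm, had 0.06 ± 0.26 (SE, n = 4 per group), with 8.04, 14.8, 7.33 and 17.4 CPM in KO. Without WT libraries 1 and 2 its value was −0.04.

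The nexin-dynein link genes were at 14.6 CPM ± 2.32 (SD, n = 4) in WT and 12.8 ± 1.77 (SD, n = 4) in KO for Drc1. Drc3 had 10.7 ± 1.24 (SD, n = 4) in WT and 11.6 ± 0.614 (SD, n = 4) in KO. Drc7 had 8.53, 7.61, 4.59 and 3.12 CPM in WT and 5.65, 0.354, 2.61 and 1.13 in KO, a log2 difference of −1.30 ± 0.60 (SE, n = 4 per group, adjusted p by edgeR = 0.467). KO library 2 was the lowest here as well, and the value was −0.67 without WT libraries 1 and 2.

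**Figure D3:**
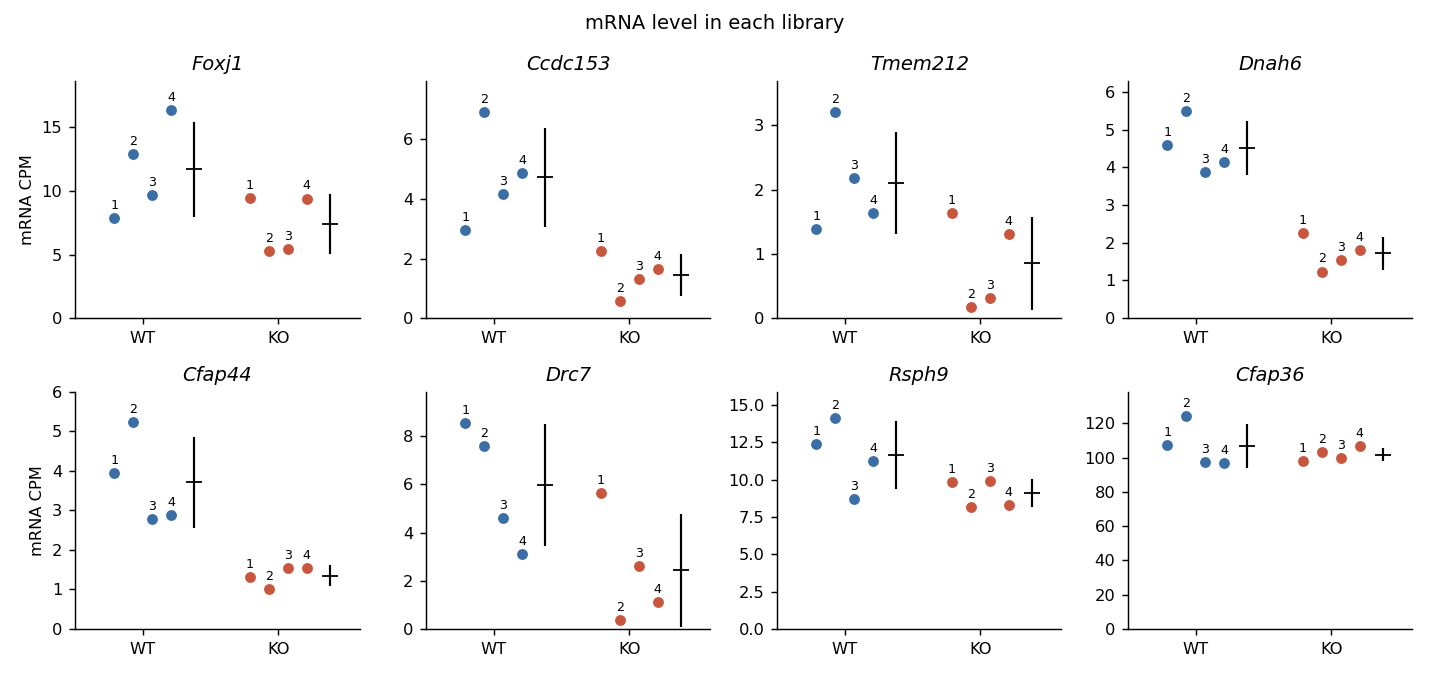
mRNA level (CPM) of 8 members in each library, with libraries numbered 1 to 4 in WT (blue) and KO (red) and the mean ± SD of 4 libraries beside each group. Ccdc153, Dnah6 and Cfap44 do not overlap between groups, whereas Tmem212, Drc7 and Cfap36 do.

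Other genes of the cilium, from lists that hold no member, were compared by counts. edgeR called 0 genes in any of the 12 lists, so direction and unadjusted p under 0.05 are given. The axonemal list, which includes proteins inside the microtubule walls, had 22 of 22 tested genes lower, with 11 at an unadjusted p and a median log2 fold change of −0.52 (−0.51 without WT libraries 1 and 2). Tppp3, at 44.8 CPM ± 5.27 (SD, n = 4) in WT and 28.7 ± 3.78 (SD, n = 4) in KO, was among them. Of the 7 genes of this list below the minimum of 10 counts, Ribc1 was higher, at a mean of 0.344 CPM in WT and 0.701 in KO. The others had lower means in KO. Other dynein arm parts had 8 of 12 lower (5 at an unadjusted p, median −0.29), the central pair and nexin link list 11 of 14 (3, −0.36), and dynein assembly 5 of 6 (0, −0.14). The multiciliated transcription list had 10 of 11 lower with 1 at an unadjusted p and a median of −0.28. Rfx3, which binds X-boxes, was at 61.7 ± 15.3 (SD, n = 4) in WT and 50.9 ± 13.0 (SD, n = 4) in KO, and its log2 difference of −0.28 turned to 0.07 without WT libraries 1 and 2. Intraflagellar transport and BBSome genes, which also serve the primary cilia of neurons, had 20 of 33 lower, 0 at an unadjusted p in either direction and a median of −0.03 (0.03 without WT libraries 1 and 2).

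Markers of other tissue parts moved with the genotype labels too. All 15 hypothalamic genes tested were lower, 11 at an unadjusted p, with a median of −2.17 (−0.58 without WT libraries 1 and 2), and Avp, which encodes vasopressin, was at 18.7 CPM ± 17.4 (SD, n = 4) in WT and 0.878 ± 0.975 (SD, n = 4) in KO. The 10 cortical projection neuron genes were higher, 7 at an unadjusted p, with a median of 0.40 (0.28 without WT libraries 1 and 2). All 18 choroid plexus genes were lower, 2 at an unadjusted p, with a median of −0.87, which was −0.32 without WT libraries 1 and 2. The summed choroid plexus level was 1741, 1872, 1259 and 687 CPM in WT and 1899, 432, 638 and 297 in KO, so KO library 1 was as high as WT libraries 1 and 2. Members had a mean log2 CPM of 1.64 in KO library 1, the highest KO value but below the lowest WT value, 1.86. KO library 4, with the lowest choroid plexus sum, had 1.56, against 1.18 for KO library 2 and 1.53 for KO library 3. WT library 4, with a choroid plexus sum of 687, had 1.88. The summed CPM of the members in KO library 1, 399, was close to 395 in KO library 3 and 398 in KO library 4. The part of these tissue markers in the lower motile cilia levels was not tested.

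The list of ependymal genes without a cilia role had 11 of 11 lower, 5 at an unadjusted p and a median of −0.15. Without WT libraries 1 and 2, 8 were lower, 3 at that p, and the median was −0.04. The list includes Aqp4, Gja1 and Vim and summed to 1379 to 1824 CPM in WT. How much of this came from the ependyma was not tested. The marker Mia was at 0 in every library. The 7 tanycyte genes, of the ventricle wall of the hypothalamus, had 4 lower, 1 higher at an unadjusted p and a median of −0.30, which turned to 0.08 without WT libraries 1 and 2, where 3 were lower. The sperm list had 3 genes tested, with a median of −0.70, and Akap4, Tnp1 and Prm2 were at 0 in every library.

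**Figure D4:**
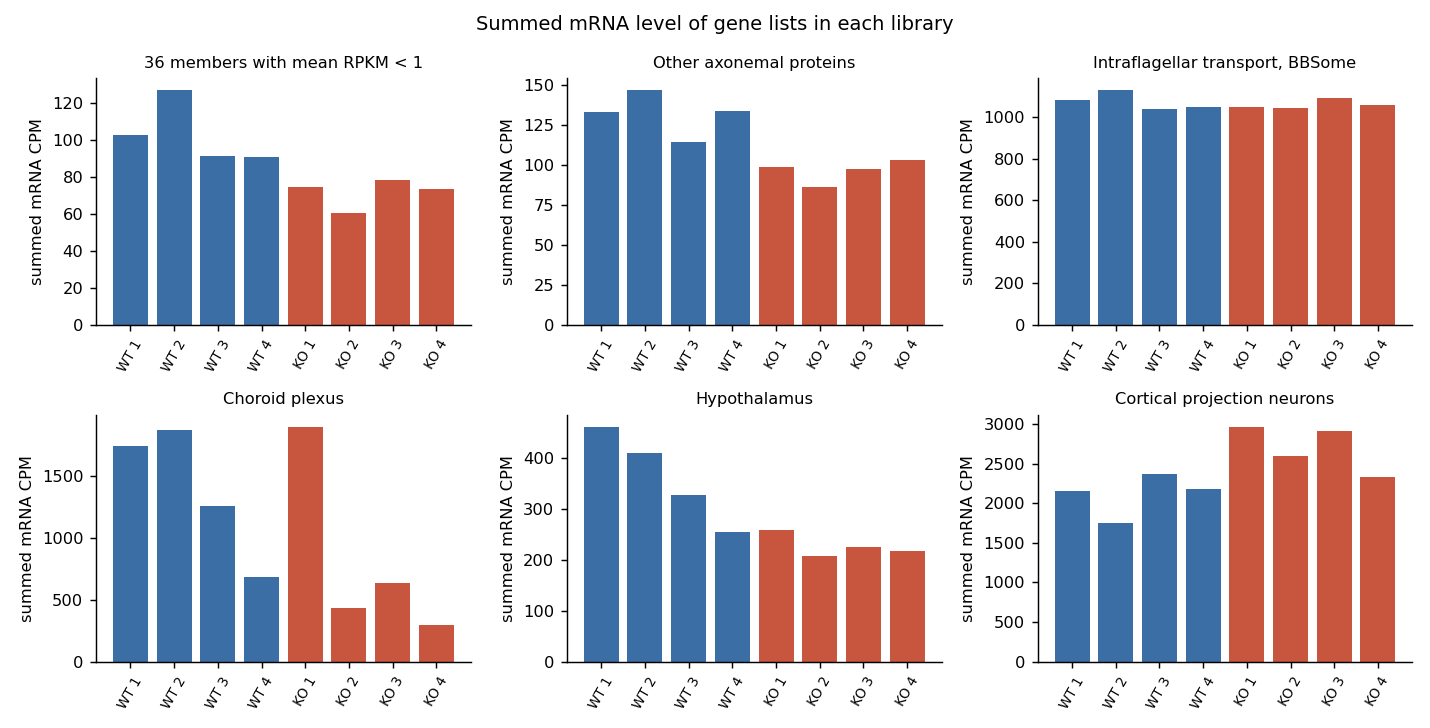
Summed mRNA CPM of 6 groups of genes in each library, WT in blue and KO in red, with bars starting at 0. The 36 low members and the other axonemal proteins are lower in each KO library than in any WT library, the intraflagellar transport genes are near level, and the choroid plexus sum of KO library 1 (1899) lies with WT libraries 1 and 2.

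Footprint sums overlapped between the groups. Over the 59 members, footprints made up 471, 379, 420 and 419 per 1000000 protein-coding footprints in WT and 565, 463, 391 and 513 in KO. The means were 422 ± 37.8 (SD, n = 4) and 483 ± 74.0 (SD, n = 4). The counts behind these were 373, 556, 509 and 494 in WT but 209, 392, 91 and 232 in KO, so the KO values rest on fewer counts. Members with too few footprints for the test below held 183, 305, 259 and 227 of the WT counts and 102, 213, 52 and 120 of the KO counts. Per 1000000 protein-coding footprints these were 231, 208, 214 and 193 in WT and 276, 251, 224 and 265 in KO. The members had a median of 26 footprint counts over all 8 libraries, and 15 had under 10.

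**Figure D5:**
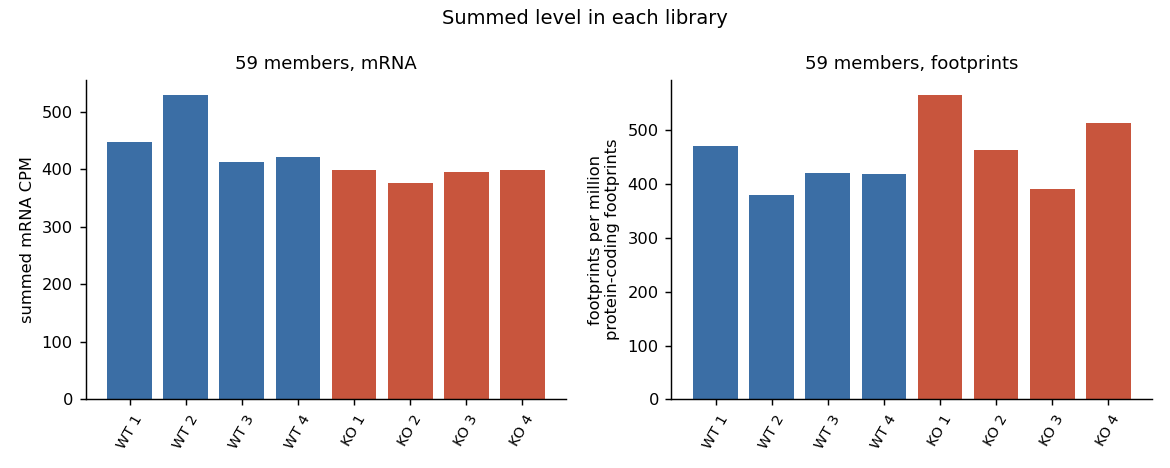
Summed level of the 59 members in each library: mRNA in CPM (left) and footprints per 1000000 protein-coding footprints (right), WT in blue and KO in red, with bars starting at 0. The mRNA sums are lower in each KO library than in any WT library, whereas the footprint sums overlap between groups.

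Only Dnah1, Rsph9, Cfap20, Cfap36, Cfap97 and Drc3 had enough footprints to test. Of these 6, 2 were lower, where 50.4% of all genes were, their median log2 fold change being 0.15. For footprints edgeR called 0 of 6 (0.00% of 8476 genes). At an unadjusted p under 0.05, 468 of all genes passed, 2.64% of those tested being lower and 2.88% higher, and DESeq2 called 4 genes, all higher (0.0472%). Dnah1 had 11, 11, 16 and 17 footprint counts in WT against 8, 16, 7 and 12 in KO, which for the shallower KO libraries gave a log2 fold change of 0.95 ± 0.38 (SE, n = 4 per group, adjusted p by edgeR = 0.875). This became 0.78 without WT libraries 1 and 2. Cfap20 had 41, 94, 83 and 68 footprint counts in WT against 24, 59, 11 and 34 in KO, and a log2 fold change of 0.11 ± 0.22 (SE, n = 4 per group).

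Translational efficiency, the footprint change relative to the mRNA change in 1 model, was testable for the same 6 members, and edgeR called 0 (0.00% of 8151 genes; 902 at an unadjusted p under 0.05; DESeq2 129). At that unadjusted p, 5.51% of all genes were lower and 5.56% higher. The median was 0.27, with 2 members lower, where 49.4% of all genes were. Dnah1 had the largest value of the 6, 1.51 ± 0.41 (SE, n = 4 per group), with an edgeR adjusted p of 0.203, while DESeq2 gave it an adjusted p of 0.0223 and called 0.945% of all genes higher and 0.638% lower. The Dnah1 value was 1.05 without WT libraries 1 and 2. Rsph9 had −0.05 ± 0.41 and Cfap36 0.30 ± 0.32 (SE, n = 4 per group).

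Of single genes with few footprints, Ccdc153 had 2, 6, 5 and 4 counts in WT against 0, 12, 0 and 6 in KO. With a minimum of 1 RPKM in both kinds of library, 15 members could be tested for translational efficiency, and Ccdc153 had a log2 value of 3.01 (adjusted p by edgeR = 0.210), which rests on these few counts. Foxj1 had 2, 13, 9 and 13 in WT and 3, 2, 0 and 12 in KO.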

How the data were processed

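Gene counts of mRNA and footprint libraries were used as deposited by the authors, with RPKM values alongside. The submitters' processing notes name TopHat2 and mm10. The counter, its strand setting and its version are not given in the sources used here, so genes that overlap a member on the opposite strand cannot be separated (16 members were so overlapped by a gene of mean count at least 10). mRNA was tested with edgeR 4.0.16 (quasi-likelihood, TMM, R 4.3.3) over genes whose 8 libraries averaged 10 counts or more, since a minimum of 1 RPKM would drop the long dynein genes. Footprints used filterByExpr, and translational efficiency an interaction in both. Adjusted p is Benjamini-Hochberg over all genes tested, with a threshold of 0.05. DESeq2 1.42.0, limma 3.58.1 on log2(RPKM + 0.1) and log2(RPKM + 1), other filters and library sizes, a replicate block and left-out libraries were alternatives. Scripts were tested on simulated data. The named genes were Foxj1, Ccdc153 and Tmem212, the 3 highest by RPKM in each family, any called, the 5 lowest and highest fold changes, the 2 on either side of the minimum, the 3 highest of each list and the 5 with the most footprints. Other members and the genes of observed extremes (Dnah3, Dnah7a, Dnah7b, Cfap157, Cfap161, Cfap206, Cfap53, Rsph14, Dnaaf1) were named after their values were seen. The members and lists were chosen with earlier results of these data known.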

Additional observations from a re-analysis of the deposited data

Results flagged for a closer look

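In 64 checks of a group of 4 libraries, 2 had 1 library far from the others, where chance flags about 1 in 20. Dnaic1 had 4.06, 4.03, 3.20 and 4.02 CPM in WT, the gap to library 3 being 0.951 of the range. Dnaaf5 had 8.53, 6.53, 6.59 and 6.85 CPM in WT, the gap to library 1 being 0.837 of the range.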

How the results depend on the processing

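The size of the mRNA difference depended on which genes and libraries were counted. For mRNA, DESeq2 called 94 genes and 3 members, and edgeR with every gene with a count called 24 genes and 3 members. The members' median was −0.13 with limma on log2(RPKM + 1), −0.19 with a minimum of 1 RPKM, where 17 of 23 members were lower and 8 lower at an unadjusted p under 0.05, and −0.29 without WT libraries 1 and 2, where 6 were lower at that p. For footprints, DESeq2 called 4 genes, every gene with a count gave 86, plain library totals 3 and protein-coding genes only 3, and 22 of 58 members were lower with every gene with a count and 4 of 6 with plain totals, against 2 of 6. For translational efficiency, DESeq2 called 129 genes and 1 member, plain totals 1 gene and the replicate block 1 gene, and 4 of 15 members were lower with a minimum of 1 RPKM and 1 of 6 without WT libraries 1 and 2, against 2 of 6. Signs turned for genes near 0. Cfap97 was 0.0012 with every gene with a count, 0.0026 and 0.0022 with the limma settings, and 0.065 without WT libraries 1 and 2. Tekt5 was −0.027 and −0.014 with the limma settings, −0.017 with the block and −0.045 without WT libraries 1 and 2. Without those libraries Dnaic1 was 0.043, Cfap36 0.068, Cfap20 0.0043, Cfap298 −0.069 and, in translational efficiency, Rsph9 0.16. With plain totals the footprint values of Cfap36 and Cfap20 were −0.098 and −0.011. Leaving out 1 library gave an mRNA median from −0.54 to −0.32, 46 to 51 members lower, 11 to 21 lower at an unadjusted p (11 without WT library 2, 13 without KO library 2) and 0 to 2 genes called. The footprint median ran from −0.02 to 0.29 with 2 to 3 members lower, and translational efficiency from 0.07 to 0.36 with 1 to 2 lower and 0 to 4 genes called. With 1 library left out, mRNA values that changed sign ran from −0.15 to 0.039 for Dnaic1, −0.11 to 0.017 for Cfap36, −0.14 to 0.0080 for Cfap20, −0.030 to 0.040 for Cfap97, −0.15 to 0.43 for Rsph3a and −0.19 to 0.22 for Tekt5, the footprint value of Cfap36 from −0.18 to 0.37, and translational efficiency from −0.063 to 0.51 for Cfap36, −0.34 to 0.011 for Cfap97 and −0.22 to 0.24 for Rsph9. The pairing by library number was not borne out, since same-numbered libraries correlated at −0.22 to 0.07 in mRNA, and the replicate block gave a median of −0.51 with 0 members called. The cause of these differences was not tested. Footprint depth left 53 members out of the planned footprint test.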

Other observations

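The 12 genes with these names that fell below the minimum of 10 counts, among them Cfap53, Rsph14 and Dnaaf1, were all lower in the libraries labelled KO when every gene with a count was fitted. Their median log2 difference was −1.10, against −0.01 over all genes of that fit, and edgeR called 0. At an unadjusted p under 0.05, 4 were lower, where 4.33% of all genes were. Their mean counts were only 0.375 to 9.62, so the size of the difference is uncertain. In WT, the footprint level relative to the mRNA level had a median log2 of −0.33 over the members and −0.13 over all protein-coding genes, and 35 of 59 members lay below the latter. Dnah7a, Dnah7b and Dnah7c, which are near-identical copies, were at −3.77, −2.87 and −2.40, among the 5 lowest members with a footprint together with Cfap157 at −3.19 and Tekt4 at −2.67. Dnaaf2 had 0 footprint counts in all libraries. Rsph3a had 17 footprint counts in WT and 0 in KO, while its mRNA was not lower. Its log2 footprint value with every gene with a count was −4.67 ± 2.06 (SE, n = 4 per group). With so few counts the size of the difference is uncertain. Cfap74 had 69 footprint counts in WT and 8 in KO, or 14.8 and 4.21 per 1000000 protein-coding footprints. Dnah11 had 3, 0, 0 and 2 in WT and 12, 6, 0 and 3 in KO, or 1.08 and 11 per 1000000 when pooled. Both were opposite in direction to their mRNA. None of these genes was called for footprints when every gene with a count was fitted. In that fit, Cfap74 and Rsph3a were the 2 of 58 members lower at an unadjusted p under 0.05, where 2.31% of all genes were. Dnah11 was the 1 member higher, where 3.19% of all genes were, so these numbers are near the shares over all genes. There the adjusted p by edgeR was 0.421 for Dnah11, 0.687 for Cfap74 and 0.783 for Rsph3a.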
